A study of Mus musculus with 12 samples.

Results

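The genes described here encode enzymes that make leukotrienes and prostaglandins and receptors that sense them. They are 10 genes of the 55401 in the tables, taken by symbol: Alox5, Alox5ap, Lta4h, Ltc4s and Ltb4r1 on the leukotriene side, and Ptgs1, Ptgs2, Ptges, Ptger2 and Ptger4 on the prostaglandin side. Their RNA was measured in migratory dendritic cells (DCs), the cells that carry antigen to lymph nodes, of B6 mice aged 6 to 8 weeks, sorted from 3 tissues, the liver, the duodenum and the pancreas. Each tissue had 4 libraries, each from a pool of 2 mice, and the labels name no transgene, deletion or treatment for any group. The sort took live CD45+ cells without lineage markers that were CD11c+, high for MHC class II, CD103+ and negative for CD11b, which is the surface profile of type 1 conventional DCs (cDC1).

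Leukotrienes and prostaglandins are short-lived lipid signals made from arachidonic acid that phospholipases free from membranes. On the leukotriene branch, 5-lipoxygenase (Alox5) works with its membrane partner FLAP (Alox5ap) to make leukotriene A4, which Lta4h turns into leukotriene B4 and Ltc4s turns into leukotriene C4, the first of the cysteinyl leukotrienes. On the prostaglandin branch, the cyclooxygenases COX-1 (Ptgs1) and COX-2 (Ptgs2) make prostaglandin H2, which Ptges turns into prostaglandin E2. Leukotriene B4 attracts leukocytes through the receptor BLT1 (Ltb4r1), and prostaglandin E2, which is known to promote the migration of DCs, acts through EP2 (Ptger2) and EP4 (Ptger4).

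Library totals ran from 220.9 M to 356.1 M estimated counts, and log2 CPM values across genes correlated at 0.944 to 0.959 within a tissue and 0.931 to 0.953 between tissues. The 8 cDC1 markers summed to 1240 to 1634 TPM (a transcript level scaled for transcript length and depth to the same total in each library) over the 12 libraries, with 0 of the 8 under 1 TPM in any tissue mean, which fits the labelled cell type. The 7 markers of type 2 DCs summed to 3.88 to 32.3 TPM, highest in duodenum. Plasma cell genes summed to 9623 to 14612 TPM in duodenum, to 1389, 1322 and 1522 TPM in liver 2, pancreas 3 and pancreas 4, and to 78.8 TPM or less in the other 5 libraries. Acinar genes summed to 416.3 to 3201 TPM in pancreas and to 8.54 TPM or less elsewhere. Hepatocyte genes summed to 36.9 to 59.7 TPM in liver and to 2.38 TPM or less elsewhere. Markers of T cells, B cells, platelets, fibroblasts and enterocytes summed to at most 29.0 TPM, those of eosinophils to at most 44.0 TPM and those of endothelium to at most 74.0 TPM, highest in duodenum. Most of the endothelium sum was Vwf, with means of 22.6, 56.9 and 30.7 TPM in liver, duodenum and pancreas. The means of Pecam1, Cdh5, Kdr and Emcn were no higher in duodenum than in liver. All 10 genes passed the filter on low counts in the fit over all 12 libraries, and their lowest estimated count in any library was 30.5. Since these are bulk libraries, fewer cells that express a gene and less RNA per cell cannot be told apart.

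The regulatory sequence just before the start of the 3 genes with the largest differences between tissues is shown because Ltc4s and Ptgs2 were both highest in duodenum while Ltb4r1 was highest in pancreas. Each run holds the 250 bases before the start that RefSeq annotates in the mouse build GRCm38.p6, 5′ to 3′ on the gene's own strand. The windows lie at chr14:55765712-55765961 on the plus strand for Ltb4r1, chr11:50238533-50238782 on the minus strand for Ltc4s and chr1:150099781-150100030 on the plus strand for Ptgs2. Capitals mark matches on either strand to 7 motifs: the cyclic AMP response element core (TGACGT), the E-box (CACGTG), a C/EBP palindrome (TTGCGCAA), the AP-1 site (TGANTCA), the GC-box (GGGCGG), the PU.1 core (GAGGAA) and a TATA motif (TATAAA).
Ltb4r1: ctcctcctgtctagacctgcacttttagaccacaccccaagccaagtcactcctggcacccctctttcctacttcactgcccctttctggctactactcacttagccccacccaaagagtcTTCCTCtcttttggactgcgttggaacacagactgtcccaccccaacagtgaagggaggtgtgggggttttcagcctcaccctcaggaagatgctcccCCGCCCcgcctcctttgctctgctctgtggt
Ltc4s: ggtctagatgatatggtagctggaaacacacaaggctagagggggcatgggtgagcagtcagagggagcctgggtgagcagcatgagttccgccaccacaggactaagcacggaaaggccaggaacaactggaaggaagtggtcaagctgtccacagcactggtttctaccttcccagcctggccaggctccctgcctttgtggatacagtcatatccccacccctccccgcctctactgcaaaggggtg
Ptgs2: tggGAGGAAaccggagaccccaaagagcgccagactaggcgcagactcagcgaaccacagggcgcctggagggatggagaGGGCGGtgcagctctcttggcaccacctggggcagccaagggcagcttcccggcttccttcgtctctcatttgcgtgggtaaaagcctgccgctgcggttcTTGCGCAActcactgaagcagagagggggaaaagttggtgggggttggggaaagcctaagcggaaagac

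The Ltb4r1 window held 1 PU.1 core and 1 GC-box, the Ltc4s window held no match to the 7 motifs in these 250 bases, and the Ptgs2 window held 1 PU.1 core, 1 GC-box and the C/EBP palindrome. Over the 27025 genes with a window in the RefSeq table, 23.1% held a PU.1 core, 32.9% a GC-box and 0.17% the C/EBP palindrome in these 250 bases. For Ptgs2 a cyclic AMP element core and an E-box, which share 2 bases, lie within bases 5 to 28 after the annotated start, at chr1:150100035-150100058 on the plus strand, where capitals mark both.
Ptgs2 after the start: tcaccactACGTCACGTGgagtcc
With the first 50 bases after the start included, 7.64% of windows held a cyclic AMP element core and 7.24% an E-box. In those 50 bases Ltb4r1 and Ltc4s each held a PU.1 core, at 3 and 17 bases after the start, and 28.3% of the longer windows held at least 1. These matches describe letters only, and of the 10 genes 9 had a window in the table.

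Between pancreas and duodenum 6 of the 10 genes differed, with Ltb4r1 and Alox5ap higher in pancreas and Ltc4s, Ptgs2, Lta4h and Alox5 lower. Of the 44624 genes tested, 7.7% were called in this comparison at an adjusted p under 0.05 in the edgeR quasi-likelihood test, with 3.76% higher in pancreas and 3.94% in duodenum. Between liver and duodenum 5 differed, the same genes without Alox5 and in the same directions, where 7.32% of all genes were called, 3.37% higher in liver and 3.95% higher in duodenum. Between liver and pancreas 2 differed, Ltb4r1 lower and Ltc4s higher in liver, where 1.11% of all genes were called, 0.681% higher in pancreas and 0.426% higher in liver. Ptgs1, Ptges, Ptger2 and Ptger4 were called in no comparison. The comparisons with duodenum share its 4 libraries, so their values are given side by side and are not independent. The median log2 difference of the 10 genes was -0.22 in pancreas and -0.16 in liver against duodenum, beside 0.09 and 0.10 over all genes tested, and 0.02 beside 0.01 in liver against pancreas. The TPM ranges of 5, 6 and 3 of the 10 genes did not overlap in liver against duodenum, pancreas against duodenum and liver against pancreas, where the share of all genes was 15.6%, 13.6% and 7.33%. Split by direction, that share was 11.2% higher in liver and 4.48% higher in duodenum, then 8.21% higher in pancreas and 5.34% higher in duodenum, and last 4.76% higher in liver and 2.57% higher in pancreas.

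**Figure D1:**
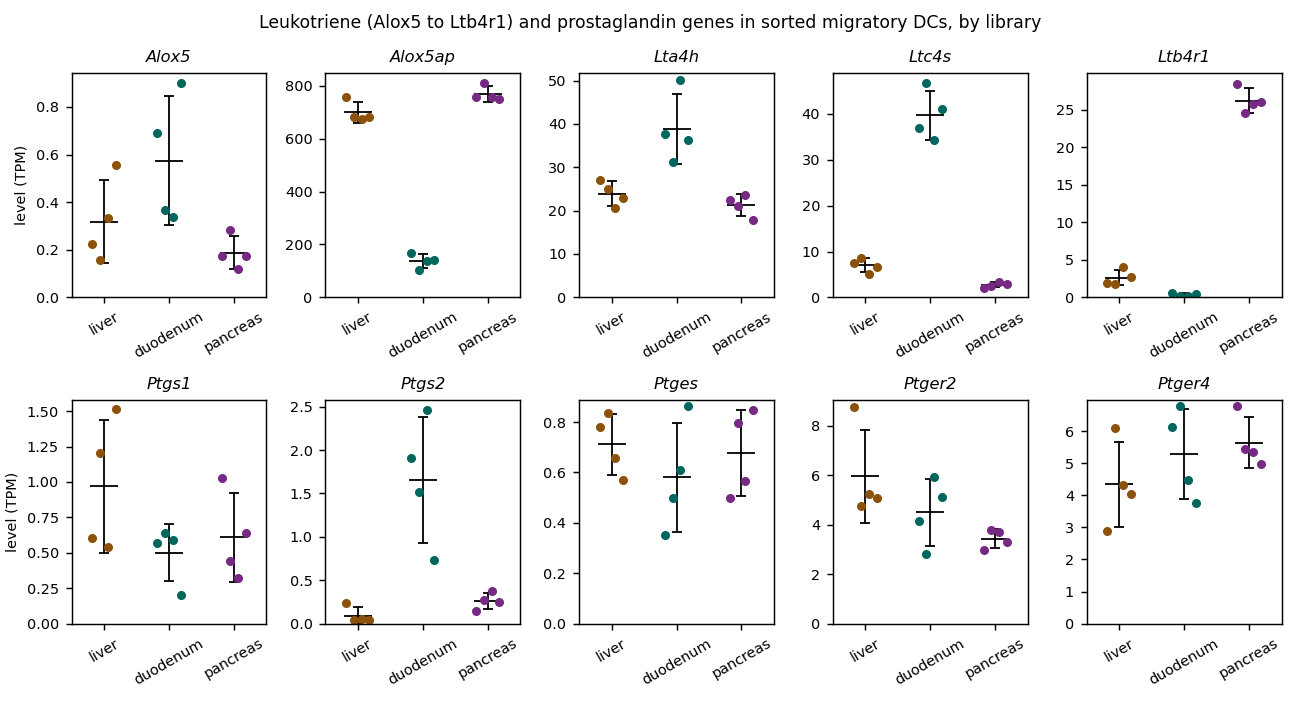
Level in TPM (linear axes from 0, 1 scale per gene) of the 10 genes in each of the 4 libraries of liver, duodenum and pancreas. Points are libraries, bars the mean and SD; Ltb4r1 is at 24.5 to 28.5 TPM in pancreas and at most 3.99 TPM elsewhere, Ltc4s is highest in duodenum and Alox5ap lowest there.

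The first enzyme step of the leukotriene branch held the most and one of the least abundant of these transcripts. Alox5ap, which encodes FLAP, the protein that hands arachidonic acid to 5-lipoxygenase, was the most abundant of the 10 genes in every tissue and stood at rank 177 in liver, 798 in duodenum and 172 in pancreas among the 55401 genes by mean TPM. It was at 758, 682, 676 and 682 TPM in liver 1 to 4, at 167, 104, 136 and 141 TPM in duodenum 1 to 4, and at 757, 812, 759 and 750 TPM in pancreas 1 to 4. Liver 1 lay among the pancreas libraries and liver 2 to 4 lay below them. All 8 liver and pancreas libraries lay above the highest duodenum library. Against duodenum the log2 difference was 2.18 ± 0.15 for liver (standard error, SE; adjusted p = 1.2e-06), or 4.54-fold, and 2.41 ± 0.16 for pancreas (adjusted p = 3.04e-07), or 5.33-fold. Liver and pancreas differed by -0.23 (95% interval -0.55 to 0.09, adjusted p = 0.775). FLAP is a known gene of macrophages and monocytes as well as of DCs: the 10 macrophage markers summed to 16.8 to 26.3 TPM in liver, 7.59 to 10.5 TPM in duodenum and 8.56 to 19.7 TPM in pancreas. The 7 monocyte markers summed to 153 to 174, 134 to 236 and 163 to 204 TPM in the same order, but they include Nr4a1, also an immediate-early gene, with means of 8.92, 129 and 35.0 TPM. Without it the other 6 summed to 145 to 166 TPM in liver, 33.8 to 69.4 in duodenum and 135 to 179 in pancreas. By mean, Ccr2 was the largest of the 6 in liver and pancreas, and Ly6c2 in duodenum. Ccr2 means of 129, 12.2 and 141 TPM had the same order as Alox5ap, while Ly6c2 was highest in duodenum and lowest in pancreas. Summed levels of 25 DC maturation genes were also lowest in duodenum (620 to 809 TPM, against 1248 to 1924 TPM in liver and 1894 to 3252 TPM in pancreas), with 14 higher and 1 lower in liver, 15 higher and 1 lower in pancreas, and 2 higher in liver than in pancreas, where 3.37%, 3.95%, 3.76%, 3.94% and 0.426% of all genes were called in these directions. The part of these lists in the Alox5ap result was not tested. An antisense gene that overlaps Alox5ap, Gm19719, was at 0.76 TPM or less in every library.

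Alox5, which encodes 5-lipoxygenase itself, was low in all libraries. It was at 0.22, 0.16, 0.33 and 0.56 TPM in liver 1 to 4, at 0.69, 0.37, 0.34 and 0.90 TPM in duodenum 1 to 4, and at 0.17, 0.28, 0.12 and 0.17 TPM in pancreas 1 to 4. The pancreas range lay just under that of duodenum, and liver overlapped both. Alox5 in pancreas stood at a log2 difference of -1.72 ± 0.45 from duodenum (SE, adjusted p = 0.0292), a call that ended when any of duodenum 1, duodenum 4, pancreas 1, pancreas 3 or pancreas 4 was left out (adjusted p from 0.0738 to 0.102). It also ended with the replicate number as a block (adjusted p = 0.0616). In liver the difference to duodenum was -1.03 ± 0.44 and was not called (adjusted p = 0.207). The TPM ratio of Alox5ap to Alox5 within a library ran from 1224 to 4346 in liver, from 156 to 400 in duodenum and from 2874 to 6481 in pancreas. The 11 neutrophil markers, a cell type known for 5-lipoxygenase, summed to 4.80 to 21.7 TPM in duodenum, 5.98 to 19.3 TPM in pancreas and 5.99 to 6.89 TPM in liver. The 5 B cell markers summed to 9.78 to 16.2 TPM in duodenum, 3.40 to 8.26 TPM in pancreas and 3.05 to 4.41 TPM in liver. The part of these lists in the level of Alox5 was not tested.

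The 2 enzymes that compete for leukotriene A4 differed in unequal measure. Lta4h, the hydrolase that makes leukotriene B4, was at 27.1, 25.0, 20.6 and 22.9 TPM in liver 1 to 4, at 37.6, 31.3, 50.1 and 36.2 TPM in duodenum 1 to 4, and at 22.4, 21.0, 23.7 and 17.8 TPM in pancreas 1 to 4. Every duodenum library lay above every other library, though the gap was small. Against duodenum, Lta4h differed by -0.87 ± 0.17 for liver (log2, SE; adjusted p = 0.00558) and by -0.94 ± 0.17 for pancreas (adjusted p = 0.0029), while liver and pancreas differed by 0.07 (95% interval -0.29 to 0.43).

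Ltc4s, the synthase that joins leukotriene A4 to glutathione, was at 7.59, 8.65, 5.16 and 6.67 TPM in liver 1 to 4, at 36.9, 46.7, 34.2 and 41.0 TPM in duodenum 1 to 4, and at 2.06, 2.56, 3.41 and 2.87 TPM in pancreas 1 to 4. The 3 tissues did not overlap, in the order duodenum, liver, pancreas, and each pair of neighbours in this order passed the test. Against duodenum, Ltc4s differed by -2.67 ± 0.22 for liver (log2, SE; adjusted p = 4.86e-06) and by -3.91 ± 0.23 for pancreas (adjusted p = 2.29e-07), which is 6.34-fold and 15.1-fold. Between liver and pancreas the difference was 1.25 ± 0.21 (adjusted p = 0.00795), or 2.37-fold.

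Ltc4s is a known gene of mast cells and of tuft cells, the chemosensory cells of the gut lining. Of 11 mast cell markers, 10, 10 and 9 had a mean under 1 TPM in liver, duodenum and pancreas, and Kit, which is not specific to mast cells, made up most of sums of 20.1 to 24.4 TPM in duodenum and 22.4 to 32.7 TPM in the other tissues. The 10 mast cell markers other than Kit had means of 0.07 to 0.78 TPM in duodenum, 0.11 to 0.65 TPM in liver and 0.07 to 1.12 TPM in pancreas. The 8 tuft cell markers summed to 2.10 to 4.68 TPM in duodenum, 2.42 to 3.55 TPM in liver and 2.73 to 3.74 TPM in pancreas. The 7 eosinophil markers summed to 22.8 to 33.6 TPM in duodenum, 33.7 to 44.0 TPM in liver and 25.5 to 29.5 TPM in pancreas. Among them only Prg2 had its highest mean in duodenum, with 0.09, 5.20 and 0.56 TPM in liver, duodenum and pancreas. Plasma cell genes were also highest in duodenum, as given above, but their sums in liver and pancreas overlapped. Gm26542, an antisense gene that overlaps Ltc4s, was at 2.70 to 4.23 TPM in duodenum and at most 3.07 TPM elsewhere. Its range in liver overlapped those of duodenum and pancreas, unlike that of Ltc4s. The part of mast cell, tuft cell, eosinophil, plasma cell and antisense transcripts in the result was not tested. Liver 2, the liver library with plasma cell transcripts, had the highest Ltc4s of its tissue. Pancreas 3 and pancreas 4, which also held them, had Ltc4s at 3.41 and 2.87 TPM, against 2.06 and 2.56 TPM in pancreas 1 and pancreas 2. Ltc4s remained called in all 3 comparisons without liver 2, pancreas 3 and pancreas 4. That fit kept all 4 duodenum libraries, which had the highest plasma cell sums, so it cannot separate plasma cell transcripts from the tissue.

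Within a library, the TPM ratio of Lta4h to Ltc4s was 3.58, 2.89, 3.98 and 3.44 in liver 1 to 4, 1.02, 0.67, 1.46 and 0.88 in duodenum 1 to 4, and 10.9, 8.20, 6.96 and 6.20 in pancreas 1 to 4. The transcript of the leukotriene B4 enzyme thus exceeded that of the leukotriene C4 enzyme in all liver and pancreas libraries, while the ratio ran from 0.67 to 1.46 in duodenum. These ratios compare levels of RNA and are given with no test.

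Ltb4r1, which encodes the high-affinity leukotriene B4 receptor BLT1 (ENSMUSG00000046908), set pancreas apart. It was at 28.5, 24.5, 25.9 and 26.1 TPM in pancreas 1 to 4, at 1.89, 1.80, 3.99 and 2.75 TPM in liver 1 to 4, and at 0.58, 0.21, 0.22 and 0.45 TPM in duodenum 1 to 4. The 3 tissues did not overlap, in the order pancreas, liver, duodenum. The log2 difference of pancreas to duodenum was 6.08 ± 0.42 (SE, adjusted p = 6.07e-07), or 67.6-fold, and that of liver to duodenum 2.68 ± 0.37 (adjusted p = 0.000356), or 6.40-fold. Liver lay below pancreas by -3.40 ± 0.37 (adjusted p = 0.000156), or 10.6-fold. The rank of Ltb4r1 among the 10 genes by mean TPM went from last in duodenum to 2 in pancreas, where it exceeded Lta4h.

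Acinar transcripts also set pancreas apart, with sums of 3201, 416, 1368 and 1418 TPM in pancreas 1 to 4, where Ltb4r1 was at 28.5, 24.5, 25.9 and 26.1 TPM, the same order of libraries over a narrower range. Neutrophils are known for BLT1, and the sum of their 11 markers was 5.98 to 19.3 TPM in pancreas, 5.99 to 6.89 TPM in liver and 4.80 to 21.7 TPM in duodenum. In pancreas 8 of the 11 had a mean under 1 TPM. S100a8 had a mean of 2.40 TPM there (0.29 to 8.57 TPM by library), against 0.36 TPM in liver and 1.55 TPM in duodenum. S100a9 and Retnlg were highest in duodenum, with means of 0.14, 1.99 and 0.74 TPM and of 0.18, 1.20 and 0.99 TPM in liver, duodenum and pancreas. In the same order Ltf had means of 0.78, 0.78 and 1.34 TPM and Cxcr2 of 2.85, 2.13 and 2.73 TPM. The part of acinar and neutrophil transcripts in the Ltb4r1 result was not tested. The other leukotriene B4 receptor gene, Ltb4r2, which lies next to Ltb4r1 in the genome, had means of 0.32, 0.28 and 0.38 TPM in liver, duodenum and pancreas and was called in no comparison.

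**Figure D2:**
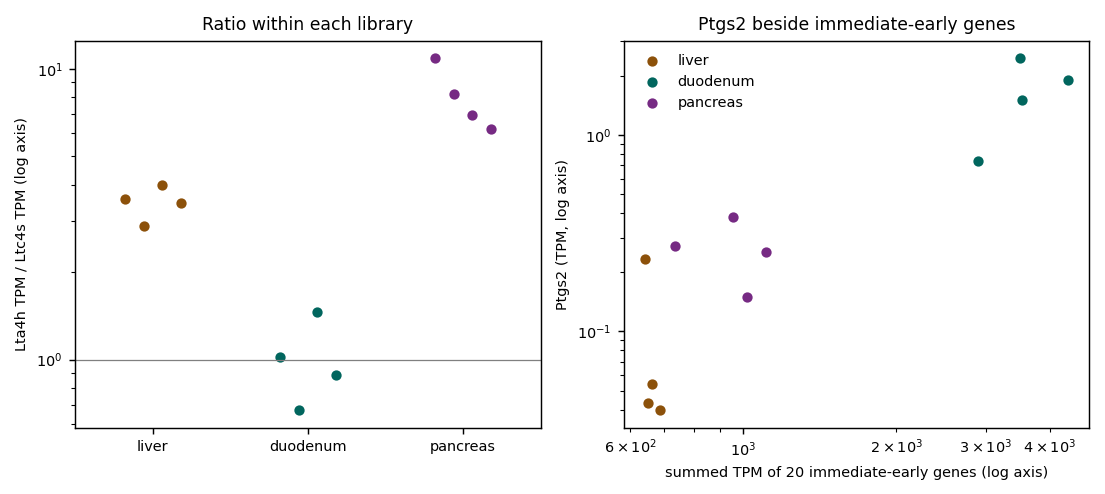
Left, TPM ratio of Lta4h to Ltc4s in each library (log axis, line at 1), lowest in duodenum and highest in pancreas. Right, Ptgs2 in TPM against the summed TPM of 20 immediate-early genes in each of the 12 libraries (log axes), where the 4 duodenum libraries are high on both.

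On the prostaglandin branch, the inducible cyclooxygenase gene was higher in duodenum, at low levels. Ptgs2, which encodes COX-2, was at 1.91, 1.51, 2.46 and 0.74 TPM in duodenum 1 to 4, at 0.23, 0.04, 0.05 and 0.04 TPM in liver 1 to 4, and at 0.15, 0.27, 0.38 and 0.25 TPM in pancreas 1 to 4. All duodenum libraries lay above the rest, and liver 1 lay among the pancreas libraries. Against duodenum, Ptgs2 differed by -4.33 ± 0.61 for liver (log2, SE; adjusted p = 0.000452), or 20.1-fold, and by -2.68 ± 0.56 for pancreas (adjusted p = 0.0078), or 6.42-fold. Without liver 1 the liver value was -5.37 ± 0.50 (adjusted p = 4.05e-05). Liver and pancreas differed by -1.64 ± 0.55 with no call (adjusted p = 0.279), but Ptgs2 was called lower in liver without liver 1 (-2.63, adjusted p = 0.013).

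Ptgs2 is itself an early response gene, and 20 immediate-early genes summed to 2897 to 4352 TPM in duodenum, 642 to 687 TPM in liver and 733 to 1111 TPM in pancreas. Of those 20 genes, 18 were called lower in liver and 13 lower in pancreas when set against duodenum, and 11 lower in liver when set against pancreas, with 0 higher in each case. Over all genes tested the shares lower in these comparisons were 3.95%, 3.94% and 0.681%. Such genes respond to cell handling as well as to signals in the tissue, and their part in the Ptgs2 result was not tested.

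Ptgs1, which encodes the constitutive COX-1, ranged from 0.54 to 1.52 TPM in liver, 0.20 to 0.64 TPM in duodenum and 0.32 to 1.03 TPM in pancreas. The tissues overlapped, and the largest difference was 0.79 in liver against duodenum (95% interval -0.09 to 1.68, adjusted p = 0.332). Ptges, the inducible prostaglandin E synthase gene, ranged from 0.57 to 0.84 TPM in liver, 0.35 to 0.86 TPM in duodenum and 0.50 to 0.85 TPM in pancreas. Its 3 log2 differences lay between -0.03 and 0.15, with 95% intervals that reached no further than -0.67 and 0.79. Neither gene was called in any comparison.

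The prostaglandin E2 receptors were above Ptgs1, Ptgs2 and Ptges in TPM in each of the 12 libraries. Ptger2, for EP2, was at 8.76, 4.77, 5.23 and 5.07 TPM in liver 1 to 4, at 4.14, 2.80, 5.95 and 5.12 TPM in duodenum 1 to 4, and at 2.98, 3.79, 3.71 and 3.28 TPM in pancreas 1 to 4. All liver libraries lay above all pancreas libraries, yet the difference of 0.69 ± 0.26 did not pass (SE, adjusted p = 0.374). Ptger4, for EP4, ranged from 2.90 to 6.11 TPM in liver, 3.77 to 6.78 TPM in duodenum and 4.97 to 6.79 TPM in pancreas, all overlapping. Its difference between pancreas and duodenum was 0.03 (95% interval -0.44 to 0.49), and the values in liver were -0.43 against duodenum and -0.46 against pancreas (adjusted p = 0.312 and 0.569). Ttc33, a gene on the opposite strand that overlaps Ptger4, stood at 8.39 to 12.4 TPM in the 12 libraries, and since no source here states that strand was used, reads of overlapping genes may have been shared.

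**Figure D3:**
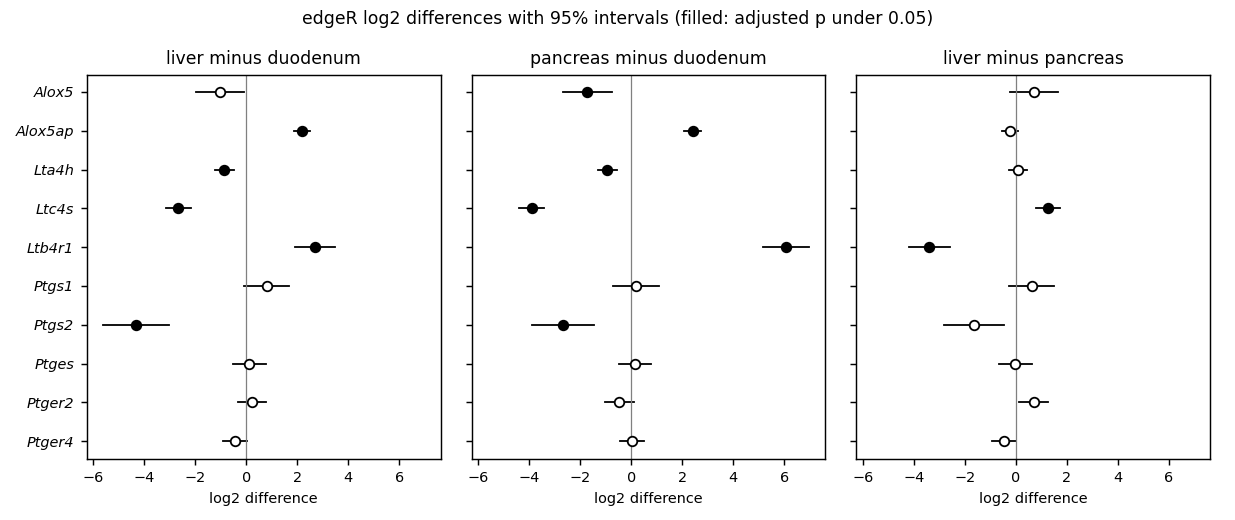
Log2 difference of each of the 10 genes in the 3 comparisons, from the edgeR fit to 12 libraries, with 95% intervals as lines. Filled points passed at an adjusted p under 0.05, 6 of them in pancreas against duodenum, 5 in liver against duodenum and 2 in liver against pancreas.

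A list of 58 other genes of these pathways was read beside the 10, of which 57 were in the tables and tested. In liver against duodenum 3 were higher and 8 lower, in pancreas against duodenum 4 were higher and 8 lower, and in liver against pancreas 2 were higher and 2 lower. Over all genes tested the shares given above were 3.37% higher and 3.95% lower, 3.76% and 3.94%, and 0.426% and 0.681%, and a sublist count of 1 of 11 or 1 of 12 lies near them. With the minimum of 1 CPM given above, the shares called over all genes were larger. Their median log2 differences were -0.09, -0.01 and -0.08. Of 11 phospholipase genes 1 was higher and 1 lower in liver, and 2 were higher and 1 lower in pancreas, than in duodenum, and of 6 other lipoxygenase genes 1 was lower in liver. Of the 9 genes listed as prostanoid synthases, most of which turn prostaglandin H2 into the separate prostanoids, 4 were lower in liver and 2 lower in pancreas than in duodenum, with 0 higher. Of 5 genes for uptake, export and breakdown of prostaglandins, 1 and 2 were lower. Of 12 genes that process or export leukotrienes, 1 was higher and 1 lower in liver, and 2 were higher and 2 lower in pancreas. Of 7 leukotriene and lipid mediator receptors 0 and 1 were lower, and of 7 other prostanoid receptors 1 was higher in liver, Ptgdr2, with a mean of 0.21 TPM, and 0 were called in pancreas. That call of Ptgdr2, named after its values were seen, held in 4 of 22 alternatives and ended when any of 10 single libraries was left out.

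Among synthase genes above 10 TPM set against duodenum, Ptgis and Hpgds passed as lower in each other tissue, while Tbxas1 and Ptges3 passed in liver. As given above, the sums of endothelium markers (mostly Vwf), type 2 DC markers and plasma cell genes were also highest in duodenum. Their part in the results of these synthase genes was not tested. Akr1b3, an aldose reductase with prostaglandin F synthase activity that was named after its values were seen, had means of 86.6, 106 and 83.4 TPM in liver, duodenum and pancreas and was not called (adjusted p = 0.0705 and 0.0987 against duodenum). Ptgis, the prostacyclin synthase gene, was at 21.7, 13.7, 23.3 and 16.5 TPM in duodenum 1 to 4, at 2.77, 3.92, 4.53 and 4.79 TPM in liver 1 to 4, and at 0.44, 0.82, 0.56 and 1.89 TPM in pancreas 1 to 4. The 3 tissues did not overlap. Against duodenum, Ptgis differed by -2.39 ± 0.40 for liver (log2, SE; adjusted p = 0.00167) and by -4.42 ± 0.43 for pancreas (adjusted p = 1.42e-05), the latter -5.07 without pancreas 4. Ptgis was 2.02 ± 0.39 higher in liver than in pancreas (adjusted p = 0.0201), a value that was 2.62 without pancreas 4 and lost its call without liver 3, liver 4, pancreas 1, pancreas 2 or pancreas 3 (highest adjusted p = 0.0818).

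Hpgds, the hematopoietic prostaglandin D synthase gene, was at 13.3, 16.8, 18.3 and 19.0 TPM in duodenum 1 to 4, at 4.09, 1.11, 2.96 and 1.60 TPM in liver 1 to 4, and at 9.32, 8.15, 8.13 and 3.66 TPM in pancreas 1 to 4. It was lower in liver than in duodenum by -2.94 ± 0.39 (SE, adjusted p = 0.000276), with no overlap. Its calls in pancreas against duodenum (-1.28 ± 0.37, adjusted p = 0.0482) and in liver against pancreas (-1.67 ± 0.37, adjusted p = 0.0477) each lay near the threshold. The first ended when any single library other than duodenum 2 of those 2 tissues was left out, and the second when any of 9 single libraries was (all but liver 1, duodenum 2 and pancreas 4), with adjusted p up to 0.107 and 0.146. The second also ended with the replicate number as a block (adjusted p = 0.0553), with RLE scaling (0.062) and in a fit to those 2 tissues alone (0.0895). Tbxas1, the thromboxane synthase gene, was at 33.3 to 39.2 TPM in liver, 44.6 to 62.5 TPM in duodenum and 52.5 to 54.6 TPM in pancreas. It was lower in liver than in duodenum by -0.82 ± 0.14 (adjusted p = 0.00216), while pancreas and duodenum overlapped and differed by -0.14 (adjusted p = 0.682), a difference called without duodenum 2 (adjusted p = 0.045). It was also called lower in liver than in pancreas (-0.67 ± 0.14, adjusted p = 0.0291), a call that ended without any of 9 single libraries, all but duodenum 2, 3 and 4 (adjusted p up to 0.123). It also ended with the block (0.0547), with RLE scaling (0.0824) and without liver 2, pancreas 3 and pancreas 4 together (0.527).

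Ptges3, which encodes the cochaperone p23 that is also named a cytosolic prostaglandin E synthase, was at 260 to 304 TPM in liver, 279 to 487 TPM in duodenum and 278 to 301 TPM in pancreas. It was lower in liver than in duodenum by -0.67 ± 0.18 (SE, adjusted p = 0.0316), until liver 1, liver 2, liver 4, duodenum 1, duodenum 3 or duodenum 4 was left out (adjusted p up to 0.0977), and in pancreas the difference of -0.54 was not called (adjusted p = 0.0837). Ptgr2, a reductase that breaks down prostaglandins, was at 9.33 to 12.5 TPM in liver, 13.8 to 17.7 TPM in duodenum and 10.0 to 11.7 TPM in pancreas. It was lower than in duodenum in liver by -0.61 ± 0.15 (adjusted p = 0.021), until duodenum 1 was left out (adjusted p = 0.0769), and in pancreas by -0.53 ± 0.15 (adjusted p = 0.0423). The pancreas call ended without duodenum 1, 3 or 4 or pancreas 1, 2 or 4 (adjusted p up to 0.146), and both calls of Ptgr2 ended with the block (adjusted p = 0.0517 in liver and 0.089 in pancreas).

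Dpep2, a dipeptidase that turns leukotriene D4 into leukotriene E4, went the other way from Ltc4s when set against duodenum. It was at 11.5 to 22.3 TPM in liver, at 5.41, 3.72, 4.99 and 4.08 TPM in duodenum 1 to 4, and at 27.2, 25.6, 20.7 and 23.8 TPM in pancreas 1 to 4. All duodenum libraries lay below the rest. Against duodenum, Dpep2 differed by 1.64 ± 0.22 for liver (log2, SE; adjusted p = 0.000317) and by 2.33 ± 0.23 for pancreas (adjusted p = 1.26e-05). Liver and pancreas overlapped, and their difference of -0.69 ± 0.22 was not called (adjusted p = 0.218), though it was without liver 3 (adjusted p = 0.0341). These values are of the gene ENSMUSG00000053687, and another row with the same symbol had means of 0.15 TPM or less in each tissue.

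**Figure D4:**
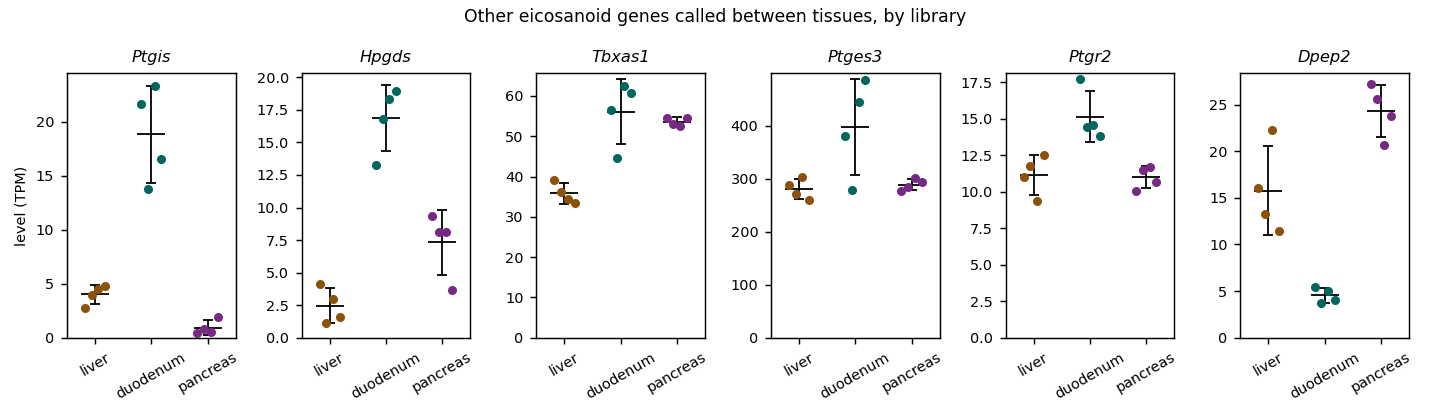
Level in TPM (linear axes from 0, 1 scale per gene) of the 6 other eicosanoid genes named by the rule, in the 4 libraries of each tissue, with mean and SD. Ptgis and Hpgds are highest in the 4 duodenum libraries, and Dpep2 is lowest there.

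The genes whose level was most like that of the 3 most changed genes were listed by Pearson correlation of log2(TPM + 1) over the 12 libraries, which fall into 3 tissues, so that r mostly follows the tissue order. Nearest to Ltb4r1 were F2rl2 (r = 0.98), Anxa2 (0.98), Plec (0.98), Klrb1b (0.97) and Fcer1g (0.97), of 6249 genes compared. Klrb1b, a receptor gene of the NK cell receptor family, had means of 42.3 TPM in pancreas, 7.10 TPM in liver and 0.75 TPM in duodenum, and Anxa2, an annexin gene, 1460, 430 and 266 TPM. Nearest to Ltc4s were Ppp1r14a, Camkk1, Dapk2, Mydgf and Cib1 (r = 0.99, 0.99, 0.98, 0.98 and 0.98). Dapk2, a calmodulin-dependent kinase gene, had means of 69.2 TPM in duodenum, 6.06 TPM in liver and 1.00 TPM in pancreas, the same order as Ltc4s. Nearest to Ptgs2 were Tmed5, Hspa14, Psmb4, Ccrl2 and Sqstm1 (r = 0.96, 0.96, 0.95, 0.95 and 0.95), of which Ccrl2, an atypical chemokine receptor gene, had means of 18.7 TPM in duodenum, 4.07 TPM in liver and 4.58 TPM in pancreas.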

How the data were processed

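PolyA RNA of 12 libraries was measured by sequencing. The submitters' processing notes name kallisto and the build GRCm39; the version, index, gene summary and use of strand were not given in the sources used. The authors deposited estimated counts and TPM as 2 tables of 55401 genes each. Over 12632 genes above 1 TPM throughout, count divided by TPM equalled a gene factor times a library factor (largest deviation 1.1e-09, log2), the form of counts rebuilt from TPM.

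Rounded estimated counts went into edgeR 4.0.16 (R 4.3.3): filterByExpr (minimum count 10, which left 44624 genes), TMM scaling, 1 fit to all 12 libraries without a block, robust quasi-likelihood F tests, and Benjamini-Hochberg adjustment over all genes tested. Every adjusted p is from this test unless another is named; the SE is the absolute log2 difference over the square root of F. The pipeline was tested on simulated data. Levels are TPM. Libraries of 1 tissue are separate pools, and no pair agreed within sampling noise (chi-square per degree of freedom 81.2 to 435). Alternatives were other scalings, filters, DESeq2 1.42.0, limma 3.58.1 on log2(TPM + 1) and log2(TPM + 0.1), 2-tissue fits, a block, and left-out libraries.

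The 10 genes, lists and tests were chosen with earlier results of these data known. Named were all 10 genes, called genes of the pathway list with a mean of at least 10 TPM in 1 tissue, at most 8, and the 5 genes most like each of the 3 most changed members, leaving out predicted genes and antigen receptor segments. Marker lists covered cDC1, type 2 DCs, mast cells, neutrophils, eosinophils, macrophages, monocytes, platelets, T, B, plasma and tuft cells, enterocytes, acinar cells, hepatocytes, fibroblasts and endothelium, beside immediate-early and maturation genes. Sequences are from RefSeq tables for GRCm38.p6, another build than that of the files; Alox5ap has no entry. Single-cell data that the design mentions were not used here.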

Additional observations from a re-analysis of the deposited data

Results flagged for a closer look

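In 5 of the 30 sets of 4 libraries (10 genes in 3 tissues) 1 library stood apart from the other 3 by a gap larger than Dixon's 95% critical value of 0.829 times the range, where chance gives about 1 in 20. Liver 1 was high for 3 genes: Alox5ap at 758 TPM with the next library at 682 TPM, Ptgs2 at 0.23 TPM with the next at 0.05 TPM, and Ptger2 at 8.76 TPM with the next at 5.23 TPM. Pancreas 2 was high for Alox5ap, at 812 TPM with the next at 759 TPM. Duodenum 4 was low for Ptgs1, at 0.20 TPM with the next at 0.57 TPM.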

How the results depend on the processing

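Of 23 alternatives, 1 of them (without duodenum 2 and pancreas 1) added after the data were seen, the number of the 10 genes called stayed at 5 in liver against duodenum, at 5 or 6 in pancreas against duodenum and at 2 or 3 in liver against pancreas; leaving out 1 library gave 5 to 5, 5 to 6 and 2 to 3. The 13 called differences gave 298 alternative values, of which 289 kept direction and call, 9 lost the call and 0 changed sign; the 9 were all of Alox5 in pancreas against duodenum, which could not be fitted with a minimum of 1 CPM in 4 libraries (nor could Ptgs1). Without liver 2, pancreas 3 and pancreas 4, the liver and pancreas libraries with immunoglobulin reads, its adjusted p was 0.211. The duodenum libraries, which all held more such reads, stayed in that fit. DESeq2 also called Ptgs2 lower in liver than in pancreas (-1.66, adjusted p = 0.0442).

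Signs changed in 34 of 386 alternative values of the 17 differences that were not called. For Ptger4 in pancreas against duodenum (0.03) the value was -0.0505 with RLE scaling and with DESeq2, -0.01 without liver 1, 2, 3 or 4, -0.0353 and -0.1115 without duodenum 3 and 4, and -0.0665 and -0.0294 without pancreas 1 and 3 (single libraries, -0.1115 to 0.1193). For Ptges in liver against pancreas (-0.03) it was 0.0469 with library totals, 0.0317 and 0.0758 with limma at pseudocounts of 1 and 0.1, and 0.0406 with the replicate block. It was 0.07 without liver 4, and 0.06 and 0.0925 without pancreas 2 and 4 (single libraries left out, -0.1802 to 0.0925). Without liver 2, pancreas 3 and pancreas 4 (below, the 3 libraries) it was 0.0053. For Ptges in liver against duodenum (0.12) it was -0.0059 without liver 2, -0.0573 and -0.0436 without duodenum 1 and 2 (single libraries, -0.0573 to 0.3822), -0.0056 without the 3 libraries and -0.0432 without duodenum 2 and pancreas 1. For Ptges in pancreas against duodenum (0.15) it was -0.031 and -0.0134 without duodenum 1 and 2, -0.024 without pancreas 4 (single libraries, -0.031 to 0.4064) and -0.0109 without the 3 libraries. Ptger2 in liver against duodenum (0.23) was at -0.0527 without liver 1, -0.0323 without duodenum 2 (single libraries, -0.0527 to 0.3905) and -0.0321 without duodenum 2 and pancreas 1. Ptgs1 in pancreas against duodenum (0.19) was at -0.0877 without duodenum 4, -0.1645 without pancreas 1 (single libraries, -0.1645 to 0.3405) and -0.0821 without duodenum 2 and pancreas 1. Lta4h in liver against pancreas (0.07) was at -0.0060 without pancreas 4 (single libraries, -0.0060 to 0.173).

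Deviations of same-numbered libraries of different tissues correlated at -0.05 to 0.10 over 12 pairs, beside -0.16 to 0.11 over 36 pairs of different number. The labels do not state whether same-numbered libraries came from the same mice, and such correlations cannot exclude it. With the replicate block 5, 5 and 2 of the 10 genes were called in liver against duodenum, pancreas against duodenum and liver against pancreas.

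Counts over all genes moved more. They were 3265, 3437 and 494 in the 3 comparisons, and 5133, 5074 and 1171 with DESeq2. In liver against pancreas they were 820 with library totals, 931 of 18279 genes with a minimum of 1 CPM, and 749 without duodenum 2. In liver against duodenum they were 4913 without duodenum 2 and pancreas 1 (31.1% higher in liver). They were 2069, 1712 and 177 without the 3 libraries with immunoglobulin reads. Between liver and duodenum 46% of calls were higher in liver, and 35.3% with RLE scaling or 63.5% with library totals; between liver and pancreas it was 38.5%, and 52.2% with library totals. Library totals raised the median over all genes by 0.14 in liver against duodenum. Fold changes from log2(TPM + 1) understate low genes: Ptgs2 in liver against duodenum was -1.24 on that scale. Near or under 1 TPM, as for Alox5, Ptgs1, Ptges and Ptgs2 outside duodenum, levels rest on as few as 30.5 counts in a library.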

Other observations

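A few other eicosanoid genes, each chosen after its values were seen, differed or stood out at lower levels. Ggt5, an enzyme that turns leukotriene C4 into leukotriene D4, had means of 2.35 TPM in duodenum, 1.33 TPM in liver and 0.36 TPM in pancreas, the same order as Ltc4s, and was called in all 3 comparisons (log2 differences of -0.98 in liver and -2.79 in pancreas against duodenum and 1.81 in liver against pancreas, adjusted p = 0.0127, 2.95e-06 and 0.000553, edgeR). Its liver call against duodenum ended in 1 of 23 alternatives (adjusted p = 0.0624). Pla2g7, which encodes the hydrolase of platelet-activating factor, had means of 3.92 TPM in duodenum, 0.66 TPM in liver and 0.60 TPM in pancreas, and was called lower in both than in duodenum in all 23 alternatives. Duodenum 2, at 0.66 TPM, lay within the liver and pancreas ranges, while the other duodenum libraries were at 2.87 to 7.04 TPM. Its log2 difference over the alternatives ran from -3.20 to -1.36 in liver and from -3.93 to -1.42 in pancreas, with adjusted p up to 0.046 and 0.0454.

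Cysltr1, a receptor gene for cysteinyl leukotrienes, stood at 15.3 to 20.5 TPM in liver, 12.7 to 24.8 TPM in duodenum and 23.1 to 32.0 TPM in pancreas. With all 12 libraries it passed in no comparison. Of 23 alternatives, 2 called it lower in liver than in duodenum and 5 lower in liver than in pancreas, the fit without duodenum 2 among both. Pla2g4a, the cytosolic phospholipase A2 that releases arachidonic acid, stood at 3.81 to 4.60 TPM in liver, 3.93 to 7.05 TPM in duodenum and 3.90 to 7.62 TPM in pancreas. With all 12 libraries it also passed in none, and in 1 of 23 alternatives, DESeq2, lower in liver than in duodenum.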
